A study of Mus musculus with 28 samples.

Results

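The 8 genes described here are Gadd45a, Gadd45b, Gadd45g, Bcl2l11, Mcl1, Bbc3, Pmaip1 and Btg2, regulators of growth arrest and of programmed cell death, taken by name from the 32594 genes of a count table of mouse pituitary RNA. The study asked how the pituitary of male and female C57BL/6J mice responds to restraint, and how preceding deprivation of paradoxical (rapid-eye-movement) sleep alters that response. According to the paper, the deprivation method markedly reduces rapid-eye-movement sleep and partly reduces the remaining sleep. Whole pituitaries of 28 mice, 16 females and 12 males aged 8 weeks on arrival, were sequenced as bulk messenger RNA, 1 library per mouse, and no gene was deleted or added in any group. Home cage controls (4 females, 4 males) were compared with mice restrained for 20 min and killed 10 min after its end (4 females, 2 males), with mice deprived of paradoxical sleep (PSD) for 12 h on platforms over water and killed 18 h later (4 females, 3 males), and with mice given PSD and then restraint (4 females, 3 males). Mice of every group, controls included, had been acclimated to the deprivation tank on earlier days, and cage mates shared a tank, but the labels do not give cages, so the tank could not be entered in a model. The 3 treated groups were tested against the same control mice, so their fold changes are not independent of each other.

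GADD45 proteins are small stress-induced proteins that bind PCNA, the cell cycle inhibitor p21 and the kinase MEKK4, and so link cell stress to growth arrest, DNA repair and p38 and JNK signalling. Members of the BCL-2 family decide whether the outer mitochondrial membrane is opened in apoptosis: MCL1 is a short-lived survival protein, whereas BIM (Bcl2l11), PUMA (Bbc3) and NOXA (Pmaip1) are BH3-only proteins that neutralize survival members. BTG2 is an antiproliferative protein that recruits the CCR4-NOT deadenylase to messenger RNA, and its gene, like Gadd45a, Bbc3 and Pmaip1, is a known target of p53. Btg2 and Gadd45b are known as fast-responding genes in many cell types, and GADD45G is known for being silenced in human pituitary tumours.

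In the GRCm38 annotation (GENCODE M21) Gadd45b lies at chr10:80930073-80932204, plus strand, Gadd45a at chr6:67035096-67037457, minus strand, and Gadd45g at chr13:51846678-51848468, plus strand. Btg2 lies at chr1:134075170-134079120, minus strand, and Mcl1 at chr3:95658788-95663176, plus strand. Bcl2l11 lies at chr2:128126038-128162547, plus strand, and Bbc3 at chr7:16308393-16318205, plus strand. Counts are per whole gene, so exons, introns and isoforms were not separated. Gadd45a overlaps a gene on the opposite strand, E230016M11Rik, and its counts could hold reads of that gene, since the strand setting of the counting was not stated. No annotated gene overlaps the other 7.

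The sequences upstream of Btg2, Gadd45b and Gadd45g are shown because Gadd45b and Btg2 had the highest log2 fold changes of the 8 genes after restraint and after PSD + restraint in all mice, and Gadd45g the largest difference between the sexes. They come from RefSeq (GRCm38.p6), run 5′ to 3′ on the strand of the gene and end at the base before the transcription start, except that the last 18 bases before the RefSeq start of Gadd45b were left out, because GENCODE places them in an exon. Capitals mark motif matches.
Btg2 (chr1:134079156-134079405, minus strand, 250 bases): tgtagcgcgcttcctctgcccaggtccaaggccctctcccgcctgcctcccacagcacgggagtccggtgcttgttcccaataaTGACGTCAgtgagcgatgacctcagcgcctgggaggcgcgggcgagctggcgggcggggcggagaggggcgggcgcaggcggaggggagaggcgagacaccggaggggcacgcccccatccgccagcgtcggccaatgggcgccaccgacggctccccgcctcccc
Gadd45b (chr10:80929841-80930072, plus strand, 232 bases): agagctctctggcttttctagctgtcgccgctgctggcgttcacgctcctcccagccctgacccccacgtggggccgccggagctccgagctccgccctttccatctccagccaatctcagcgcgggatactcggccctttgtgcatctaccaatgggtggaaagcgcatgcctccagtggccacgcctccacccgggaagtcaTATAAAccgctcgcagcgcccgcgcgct
Gadd45g (chr13:51846425-51846674, plus strand, 250 bases): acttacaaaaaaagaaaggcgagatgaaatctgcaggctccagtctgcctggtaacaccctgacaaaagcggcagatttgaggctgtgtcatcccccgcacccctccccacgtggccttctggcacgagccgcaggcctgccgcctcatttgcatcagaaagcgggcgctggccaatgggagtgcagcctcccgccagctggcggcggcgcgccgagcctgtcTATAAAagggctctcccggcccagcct
A set of 6 motifs was searched on both strands of the 250 bases before the start of 7 of the 8 genes (1 to 3 start sites each): the cAMP response element TGACGTCA, its half-site TGACG, the AP-1 site TGAGTCA, the TATA box TATAAA, and the NF-kB site and CArG box, each by its consensus. The window of Btg2 held the complete cAMP response element, beginning 166 bases before the start. That element was in 1.55% of 32851 windows of the same length, and it contains the half-site on either strand, which was in 17.8% of windows. Gadd45b and Gadd45g each held the TATA box, 46 and 27 bases before the start, a motif of 12.4% of windows. One of the windows of Bbc3 held an NF-kB site (7.25% of windows) and a half-site of the cAMP response element. The AP-1 site (4.46% of windows) and the CArG box (1.47% of windows) were found in none of the windows searched, and no motif was found in those of Gadd45a, Bcl2l11 and Mcl1. A match describes letters in the window and was not tested for factor binding.

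Libraries held 14024465 to 52948531 counts each, with a median of 33389717. Levels are given as CPM (a gene's counts relative to the total of its library), scaled between libraries, which serve to compare 1 gene between mice but not genes with each other. The 7 anterior pituitary hormone genes summed to 242528 to 364859 CPM in every mouse, so the labelled tissue carries its defining markers. Summed over 5 genes of the neurointermediate lobe, levels ran from 710.2 to 1073 CPM in control females and 234 to 1080.5 CPM in control males, but from 1112 to 2784 CPM after PSD in females and 1098 to 1594 CPM in males. This sum was thus higher in every PSD mouse than in every control, but of the 5 genes edgeR called 0 after PSD and DESeq2 called 1. By edgeR, 1 of the 5 was at an unadjusted p under 0.05, where 3328 of all 18936 genes were. With restraint alone the sum was 684 to 1473 CPM in females and 735 to 1228 CPM in males. These ranges overlapped both the controls and the PSD mice of the same sex. After PSD + restraint the sum ran from 1039 to 1769 CPM in females and 1142 to 2058 CPM in males, overlapping the controls in females only, and edgeR called 1 of the 5 and DESeq2 called 2. Mice are numbered here by the last digit of their label. Male control mouse 1 was the lowest of all mice on this list, and female PSD mouse 1 (236 CPM) and female PSD + restraint mouse 4 (187 CPM) were the highest on a list of 8 forebrain genes. These 3 mice are called the mice that stand apart, and calls that change without them are given with the gene. In a bulk sample, more cells of a type and more RNA per cell cannot be told apart.

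On a scale corrected for transcript length (TPM, the same measure per unit of transcript length, computed here from the counts and the mean GENCODE transcript length), Btg2 was the most abundant of the 8 genes, with a mean of 89.2 (53.3 to 166) TPM over the 28 mice, lowest and highest mouse in parentheses. Mcl1 followed at 59.2 (44.8 to 75.0) TPM. The 3 GADD45 genes had similar means, 44.4 (10.9 to 110.2) TPM for Gadd45b, 40.5 (27.4 to 56.8) TPM for Gadd45a and 37.6 (13.6 to 127) TPM for Gadd45g, and their ranges overlapped. Bbc3 at 17.1 (9.34 to 25.0) TPM and Bcl2l11 at 15.3 (9.64 to 22.6) TPM also overlapped each other. Pmaip1 was far below the rest, at 0.318 (0.123 to 0.548) TPM, which corresponds to 4 to 42 counts per mouse against at least 111 counts for every other gene. In control females the order was Gadd45g (81.2 ± 43.3 TPM, SD, n = 4), Btg2 (63.9 ± 11.5), Mcl1 (52.9 ± 0.915), Gadd45a (35.2 ± 3.81), Bbc3 (18.3 ± 2.75), Gadd45b (18.1 ± 3.12), Bcl2l11 (11.6 ± 2.08) and Pmaip1. The SD of Gadd45g spanned its difference from Btg2 and Mcl1, and Bbc3 and Gadd45b differed by less than either SD. In control males Gadd45g (19.3 ± 2.97 TPM, SD, n = 4) stood beside Gadd45b (16.6 ± 4.15) and Bbc3 (21.0 ± 2.75), and these 3 overlapped within their spread.

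**Figure D1:**
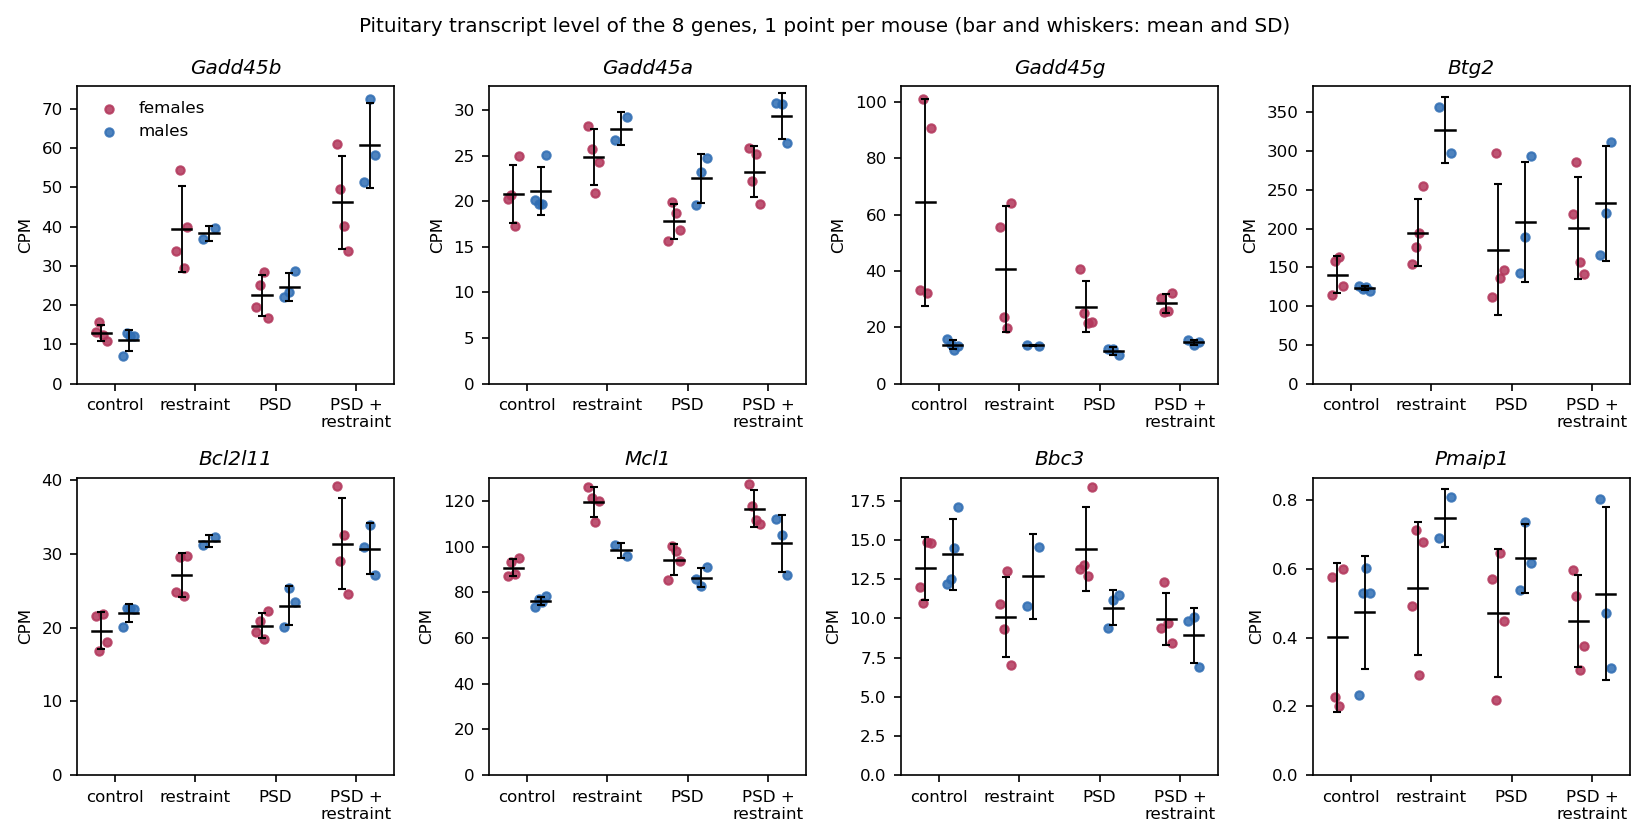
Transcript level (CPM, linear axis from 0) of each gene in every mouse, with females in red and males in blue, grouped by treatment; the horizontal bar is the group mean and the whiskers 1 SD (2 to 4 mice a group). Gadd45b climbs from 7.09 to 15.7 CPM in controls to 33.8 to 72.6 CPM after PSD + restraint, Gadd45g separates the sexes with a wide spread in females, and Pmaip1 stays below 1 CPM.

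A gene was called where its p from edgeR's quasi-likelihood test, adjusted by Benjamini-Hochberg over every tested gene, did not exceed 0.05 and its level differed at least 1.25-fold, up or down. In the model of all 28 mice, restraint alone called 4 of the 8 genes, Gadd45b, Btg2, Bcl2l11 and Mcl1, all higher, where 1.14% of 18936 tested genes were called. PSD alone called 1 gene, Gadd45b (0.671% of all genes). PSD + restraint called 5 genes, with Gadd45b, Btg2, Bcl2l11 and Mcl1 higher and Bbc3 lower (5.46% of all genes). The median log2 fold change of the 8 genes was 0.44 with restraint, 0.09 with PSD and 0.35 with both, while that of all tested genes was 0.00, 0.01 and 0.00. The 8 genes were chosen with earlier results of these data known, so this contrast with all genes is a description and not a test. Gadd45g and Pmaip1 were called in none of these 3 comparisons.

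**Figure D2:**
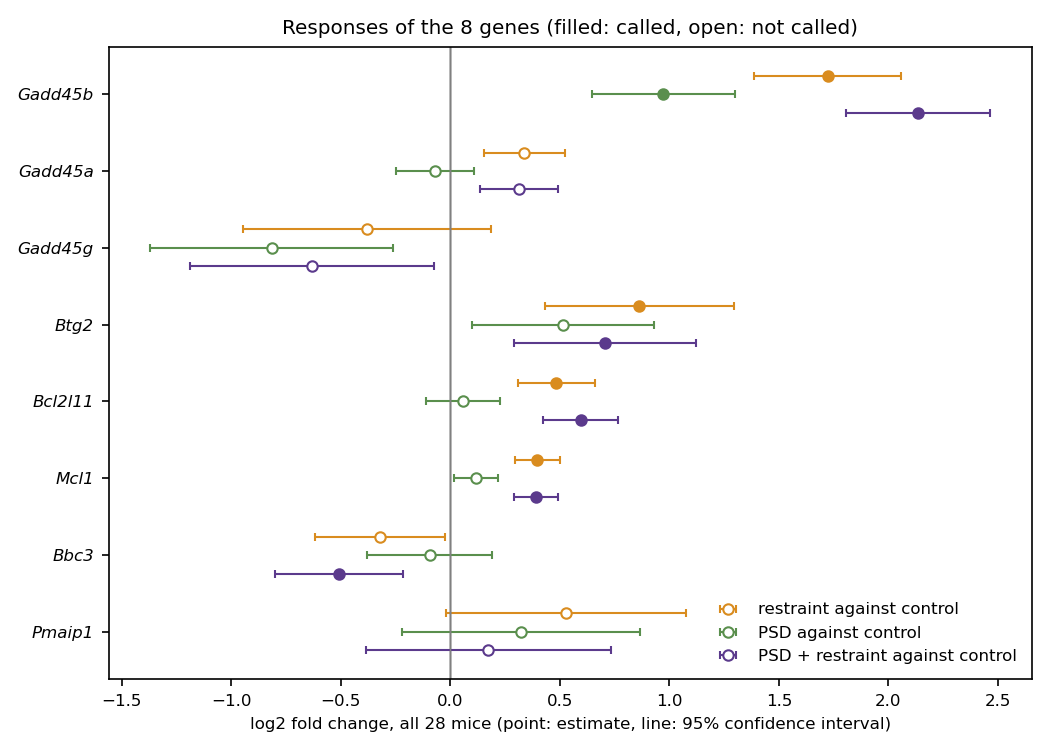
Log2 fold change of each gene in the model of all 28 mice (horizontal axis, log2 units) for restraint (orange), PSD (green) and PSD + restraint (purple) against home cage controls; points are estimates, lines 95% confidence intervals, and filled points are called genes. Gadd45b is the only gene filled in all 3 comparisons, and Bbc3 is filled to the left of 0 after PSD + restraint.

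Gadd45b, a GADD45 family member that couples to the p38 and JNK pathways in many stress responses, had the largest change of the 8 genes. Control females had 13.1, 15.7, 12.3 and 10.7 CPM and control males 7.09, 12.9, 12.1 and 12.0 CPM, each value being 1 mouse. Restrained females had 33.7, 54.5, 29.4 and 39.95 CPM and restrained males 36.9 and 39.7 CPM. All 6 restrained mice lay above all 8 controls, with female means of 39.4 ± 10.97 (SD, n = 4) and 12.9 ± 2.06 (SD, n = 4) CPM. After PSD alone, Gadd45b was at 19.4, 25.2, 28.4 and 16.8 CPM in females and 22.0, 23.3 and 28.7 CPM in males, between the control and the restrained mice and above every control. PSD + restraint mice had 61.0, 49.7, 40.2 and 33.8 CPM in females and 51.4, 72.6 and 58.3 CPM in males. These 7 mice lay above every PSD mouse of either sex, and the 3 males also lay above both restrained males.

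Over all mice, Gadd45b rose 3.30-fold with restraint, a log2 fold change of 1.72 (standard error 0.16, edgeR adjusted p = 1.89e-07). It rose 1.96-fold with PSD, by 0.97 (standard error 0.16, edgeR adjusted p = 0.00267) on the log2 scale. It rose 4.40-fold with PSD + restraint, by 2.14 (standard error 0.16, edgeR adjusted p = 1.04e-09). The PSD + restraint mice also exceeded the PSD mice, by 1.163 (standard error 0.16, edgeR adjusted p = 5.29e-05). Against restraint alone the difference was 0.41 (95% confidence interval 0.07 to 0.75), which missed the threshold over all genes (edgeR adjusted p = 0.283). The calls for restraint, PSD and PSD + restraint held without the 3 mice that stand apart, at 1.63, 0.92 and 2.12. The summed level of the neurointermediate lobe genes was higher in the same PSD mice, and its part in the PSD value was not tested.

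Gadd45a, the p53-induced founding member of the family, had smaller differences. Control mice had 20.3, 20.7, 17.3 and 25.0 CPM in females and 20.2, 19.8, 19.7 and 25.1 CPM in males, and PSD mice 15.7 to 20.0 and 19.6 to 24.8 CPM, overlapping the controls in both sexes. Restrained mice had 20.9 to 28.3 CPM in females and 26.7 to 29.3 CPM in males, and PSD + restraint mice 19.8 to 25.9 and 26.4 to 30.8 CPM. Among females each treated group overlapped the controls, whereas all restrained females lay above all PSD females. Restrained males, with or without PSD, lay above all male controls. Against PSD alone, PSD + restraint raised Gadd45a by 0.38 (standard error 0.09, edgeR adjusted p = 0.0151). Against controls, the log2 fold change was 0.34 after restraint (edgeR adjusted p = 0.0536) and 0.31 after PSD + restraint (edgeR adjusted p = 0.0199), the latter just under the threshold of 1.25-fold. Small changes of the mice or the filter moved both values over the threshold, and without the 3 mice that stand apart the gene was called after PSD + restraint, at 0.33.

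Gadd45g, which inhibits cell cycle progression and is silenced in pituitary tumours, varied widely between control females and between restrained females. Control females had 33.4, 101.1, 32.2 and 90.9 CPM, restrained females 55.4, 23.5, 19.6 and 64.1 CPM, PSD females 40.7, 24.9, 21.6 and 21.8 CPM and PSD + restraint females 30.4, 25.3, 25.8 and 32.3 CPM. Mice 2 and 4 of the control females were far above mice 1 and 3, and mice 1 and 4 of the restrained females far above mice 2 and 3. The coefficient of variation was 57.1% in control females against 11.4% in control males. Males had 15.9, 14.0, 12.1 and 13.4 CPM as controls, 13.8 and 13.4 CPM after restraint, 12.2, 12.4 and 10.0 CPM after PSD and 15.4, 13.6 and 14.9 CPM after PSD + restraint. Every female lay above every male, and the log2 difference between females and males over all mice was 1.53 (standard error 0.21, edgeR adjusted p = 1.64e-06), or 2.89-fold. It was the only one of the 8 genes called between the sexes, where 14.9% of all genes were called. The treatment differences did not pass the test: -0.38 with restraint, -0.82 with PSD and -0.63 after PSD + restraint, with edgeR adjusted p of 0.727, 0.128 and 0.135. Some intervals nevertheless lay below 0 with the gene not called. In females this held after PSD, from -2.11 to -0.35 (edgeR adjusted p = 0.143), and after PSD + restraint, from -2.05 to -0.29 (edgeR adjusted p = 0.130). In males it held after PSD, from -0.49 to -0.03 (edgeR adjusted p = 0.514). In all mice it held after PSD, from -1.37 to -0.26, and after PSD + restraint, from -1.19 to -0.07.

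Btg2, whose upstream window carries the cAMP response element shown above, had tightly grouped male controls and spread-out treated mice. Control males had 126, 122, 124 and 120.0 CPM and restrained males 358 and 298 CPM. PSD males had 143, 189 and 294 CPM and PSD + restraint males 166, 220.0 and 312 CPM. All 8 treated males lay above all 4 male controls. Control females had 115, 159, 163 and 126 CPM, restrained females 154, 176, 195 and 255 CPM, PSD females 112, 298, 136 and 146 CPM and PSD + restraint females 219, 287, 157 and 141 CPM. All female groups overlapped, and PSD mouse 2 was the highest of the 16 females at 298 CPM.

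Over all mice, Btg2 rose with restraint by 0.86 (standard error 0.21, edgeR adjusted p = 0.0276) and with PSD + restraint by 0.71 (standard error 0.20, edgeR adjusted p = 0.0237). After PSD alone the difference was 0.52, which did not pass (edgeR adjusted p = 0.188). Both calls were close to the threshold. The restraint call was lost when any 1 of 7 mice was left out, namely female control 1, female restraint 4, male control 2, 3 or 4, or male restraint 2 or 3, with log2 fold changes of 0.74 to 0.85 and edgeR adjusted p of 0.0554 to 0.0871. The PSD + restraint call was lost without female PSD + restraint mouse 2 (0.59, edgeR adjusted p = 0.0686) or male PSD + restraint mouse 3 (0.62, edgeR adjusted p = 0.0506).

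Mcl1, which encodes the survival protein, had the smallest coefficient of variation of the 8 genes in 5 of the 8 groups of mice. Control females had 87.3, 93.1, 87.9 and 95.02 CPM and restrained females 126, 121, 111 and 120.0 CPM. Control males had 73.7, 77.0, 75.6 and 78.2 CPM and restrained males 100.6 and 96.0 CPM. No restrained mouse overlapped the controls of its sex. PSD females had 85.3, 100.3, 98.1 and 93.5 CPM and PSD males 85.7, 82.7 and 90.9 CPM, while PSD + restraint females had 128, 118, 111 and 109.7 CPM and PSD + restraint males 112, 105 and 87.6 CPM. Mcl1 rose with restraint by 0.40 (standard error 0.05, edgeR adjusted p = 1.88e-05) and with PSD + restraint by 0.39 (standard error 0.05, edgeR adjusted p = 3.82e-06), about 1.32-fold in both cases. PSD alone gave 0.12 (95% confidence interval 0.02 to 0.22, edgeR adjusted p = 0.205) and was not called. The PSD males lay above all male controls, while the PSD females overlapped theirs. PSD + restraint exceeded PSD by 0.27 (edgeR adjusted p = 0.00128), below the fold threshold.

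Bcl2l11, which encodes the BH3-only protein BIM, rose with restraint, as Mcl1 did. Control females had 21.6, 16.9, 21.9 and 18.1 CPM and restrained females 24.8, 29.6, 24.2 and 29.7 CPM. Control males had 20.1, 22.6, 22.6 and 22.5 CPM and restrained males 31.2 and 32.3 CPM. The restrained mice lay above the controls of their sex without overlap. PSD mice stayed within or near the control range, with 19.4, 20.9, 18.5 and 22.3 CPM in females and 20.1, 25.4 and 23.5 CPM in males. PSD + restraint females had 39.3, 29.1, 32.5 and 24.6 CPM and PSD + restraint males 31.0, 34.0 and 27.1 CPM, each above all controls and all PSD mice of the same sex. Bcl2l11 rose with restraint by 0.48 (standard error 0.09, edgeR adjusted p = 0.00134), with PSD + restraint by 0.59 (standard error 0.08, edgeR adjusted p = 2.01e-05), and over PSD in the doubly treated mice by 0.54 (standard error 0.09, edgeR adjusted p = 0.000330). The difference after PSD alone was 0.06 (95% confidence interval -0.11 to 0.23).

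Bbc3, which encodes the BH3-only protein PUMA, had lower levels after PSD + restraint. Control females had 12.0, 10.99, 14.9 and 14.8 CPM and PSD + restraint females 9.39, 12.3, 9.69 and 8.44 CPM. Control males had 12.2, 12.5, 14.5 and 17.1 CPM and PSD + restraint males 9.82, 10.1 and 6.88 CPM. The 3 males did not overlap their controls, while 1 PSD + restraint female reached into the control range. Bbc3 fell with PSD + restraint relative to controls, the log2 fold change being -0.51 (standard error 0.14, edgeR adjusted p = 0.0200), the only decrease called among the 8 genes in the comparisons of all mice. After restraint it was at 7.02 to 13.1 CPM in females and 10.8 to 14.6 CPM in males, a log2 fold change of -0.32 (edgeR adjusted p = 0.426). After PSD it was at 12.7 to 18.4 CPM in females and 9.40 to 11.5 CPM in males, with -0.09 (edgeR adjusted p = 0.770). The PSD males lay below all male controls, while the females overlapped theirs. Fitted by sex, the value was 0.14 in females (edgeR adjusted p = 0.697) and -0.39 in males. The male interval ran from -0.72 to -0.05, but the gene was not called (edgeR adjusted p = 0.514).

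Pmaip1, which encodes NOXA, a BH3-only protein that binds MCL1, lies at chr18:66458533-66465565, plus strand in the same annotation and was at 0.199 to 0.808 CPM in the 28 mice. Its log2 fold changes were 0.53 with restraint, 0.32 with PSD and 0.17 after PSD + restraint, none called (edgeR adjusted p = 0.518, 0.546 and 0.751). The 95% confidence interval after restraint ran from -0.02 to 1.08, so at these 4 to 42 counts a doubling was not distinguishable from no difference.

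PSD + restraint called 3 of the 8 genes against PSD alone, Gadd45b, Bcl2l11 and Gadd45a, all higher (2.01% of all genes were called). Against restraint alone, edgeR called 0 of the 8 (0.0951% of all genes), and DESeq2 called 0. By edgeR, 1 of the 8 was at an unadjusted p under 0.05, where 2560 of all 18936 genes were. For the interaction of PSD and restraint, which asks whether the combination differs from the sum of both on the log2 scale, edgeR and DESeq2 called 0 of the 8, and 0% of all genes was called. Of all 18936 genes, 743 reached an unadjusted edgeR p under 0.05 for it. Among the members 2 reached an unadjusted edgeR p under 0.05, Gadd45b with -0.56 (unadjusted p = 0.0215, edgeR adjusted p = 1.0) and Btg2 with -0.67 (unadjusted p = 0.0316, edgeR adjusted p = 1.0). Both values were negative, meaning a combined level below the sum of the separate log2 changes, and neither was called.

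Fitted in each sex alone, restraint called Gadd45b and Mcl1 in females (2 of 8, with 0.543% of 18059 genes called) and Gadd45b and Btg2 in males (2 of 8, with 0.296% of 18271 genes). PSD + restraint called Gadd45b, Bcl2l11 and Mcl1 in females (2.2% of all genes) and these 3 with Btg2 and Gadd45a in males (2.56%). The male calls after PSD + restraint other than that of Gadd45b depended on single mice. The Btg2 call (0.92, edgeR adjusted p = 0.0432) was lost in 9 of 12 fits that left out 1 male, namely any control, PSD + restraint 2 or 3, PSD 2, or restraint 2 or 3, with edgeR adjusted p of 0.0523 to 0.112. The Gadd45a call (0.48, edgeR adjusted p = 0.0302) was lost in 5 of 12, without control 1, 2 or 3 or PSD + restraint 1 or 2, with edgeR adjusted p of 0.0501 to 0.135, and also with only the groups compared in the fit (edgeR adjusted p = 0.0502). The Bcl2l11 and Mcl1 calls were lost without PSD + restraint male 1 or 2, with edgeR adjusted p of up to 0.0887 and 0.0626. Of the mice that stand apart only male control 1 is a male, and without it Btg2 (edgeR adjusted p = 0.0575) and Gadd45a (edgeR adjusted p = 0.0501) were not called while Bbc3 was, at -0.70 (edgeR adjusted p = 0.0390) in place of -0.64 (edgeR adjusted p = 0.0567). In females the Mcl1 value fell under the fold threshold, at 0.32, without PSD + restraint female 1. After PSD alone, edgeR called 0 of the 8 in either sex, with 0.0277% of all genes called in females and 0.00547% in males. In females 2 members and in males 5 reached an unadjusted edgeR p under 0.05 after PSD. Of all genes, 3567 of 18059 in females and 1617 of 18271 in males did so. DESeq2 called 1 member in each sex. That gene was Gadd45b, with edgeR log2 fold changes of 0.80 (edgeR adjusted p = 0.115) in females and 1.17 (edgeR adjusted p = 0.0736) in males. It was called in females without PSD mouse 4, at 0.93 (edgeR adjusted p = 0.0382), and in males without control mouse 1, at 0.999 (edgeR adjusted p = 0.0239). After PSD + restraint Gadd45b rose by 1.84 (standard error 0.22, edgeR adjusted p = 0.000258) in females and by 2.47 (standard error 0.18, edgeR adjusted p = 4.21e-05) in males. Btg2 rose in restrained males by 1.41 (standard error 0.24, edgeR adjusted p = 0.0269), a value that rests on 2 restrained mice, and had 0.48 (edgeR adjusted p = 0.632) in restrained females. Without restrained male 2 the male value was 1.28 (edgeR adjusted p = 0.334), and without restrained male 3 it was 1.55 (edgeR adjusted p = 0.139). The call was also lost without male control 2, 3 or 4, with edgeR adjusted p of 0.0974 to 0.106.

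Whether a response differed between the sexes was tested directly, as the female minus the male log2 fold change, in a fit that gives each group of mice its own mean. edgeR and DESeq2 called 0 of the 8 genes for restraint, PSD and PSD + restraint, where edgeR called 0%, 0% and 0% of all genes and DESeq2 0, 18 and 10 genes. Of all 18936 genes, 804, 2038 and 1363 reached an unadjusted edgeR p under 0.05, and of the members 1, 1 and 2 did. For restraint this was Btg2, with a difference of -0.94 (unadjusted p = 0.0334, edgeR adjusted p = 1.0). For PSD it was Bbc3, at 0.53 (unadjusted p = 0.0457, edgeR adjusted p = 0.458). For PSD + restraint they were Gadd45g, at -1.26 (unadjusted p = 0.0206, edgeR adjusted p = 0.631), and Gadd45b, at -0.63 (unadjusted p = 0.04998, edgeR adjusted p = 0.694). In overall level, Mcl1 was higher in females by 0.21 (edgeR adjusted p = 3.56e-05) and Gadd45a had -0.21 (edgeR adjusted p = 0.0110), both under the fold threshold.

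**Figure D3:**
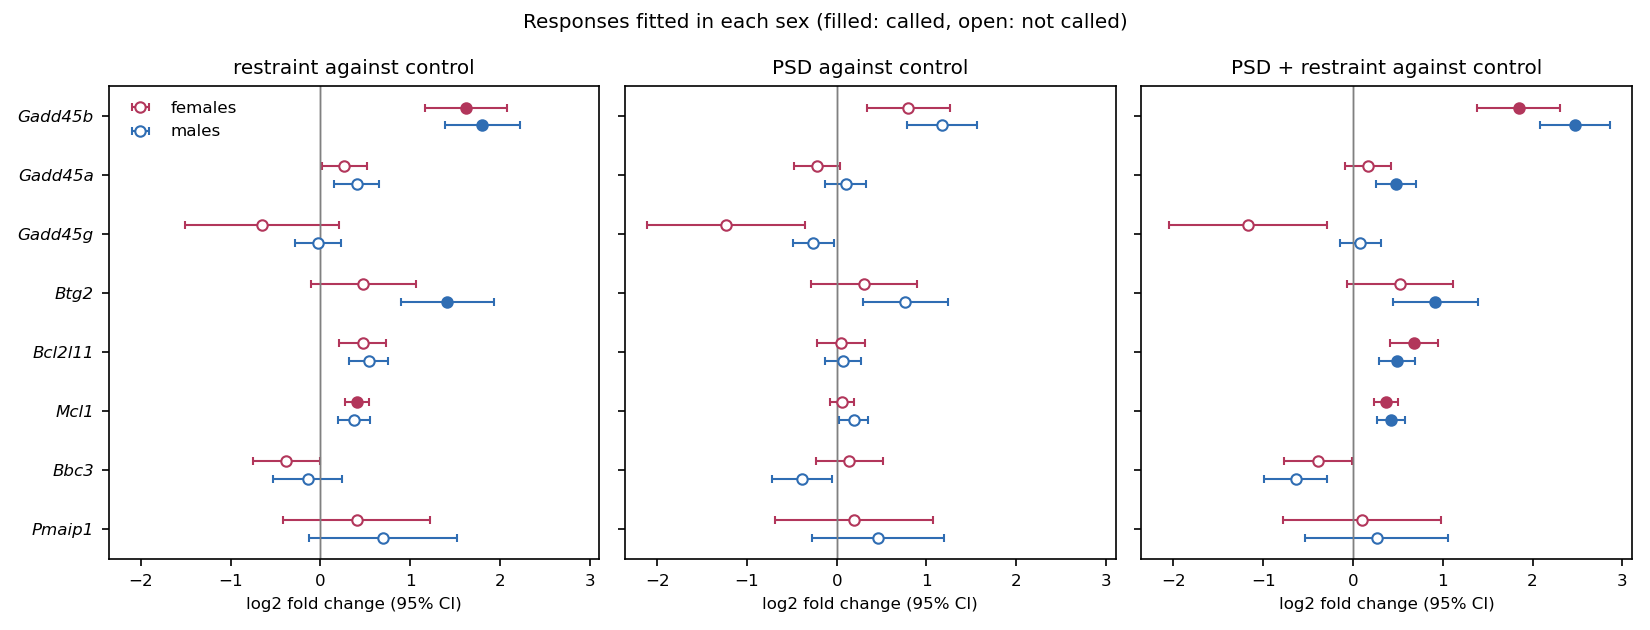
Log2 fold change of each gene fitted in females (red) and in males (blue) for restraint, PSD and PSD + restraint against home cage controls of the same sex (horizontal axis, log2 units); points are estimates, lines 95% confidence intervals, and filled points are called genes. Gadd45b lies to the right of 0 in both sexes in all 3 panels, and the intervals of Gadd45g and Pmaip1 are the widest in females.

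The log2 ratio of CPM of 6 gene pairs was also compared within each mouse, by a two-sided exact permutation test of the treatment labels within each sex, with p-values adjusted over 18 tests (6 pairs in 3 comparisons). The ratio of Gadd45b to Gadd45a exceeded that of controls by 1.37 after restraint (exact p = 0.000952, adjusted p = 0.00214), 1.04 after PSD and 1.82 after PSD + restraint (each exact p = 0.000408, adjusted p = 0.00147). The exact p-values are the smallest that the 1050 and 2450 arrangements of the labels can give. Gadd45b to Gadd45g behaved alike, with 2.03, 1.65 and 2.59, at the same p-values. Gadd45g to Gadd45a was lower than in controls, by a log2 difference of -0.77 after PSD + restraint (exact adjusted p = 0.00490) and did not pass after restraint (-0.66, exact adjusted p = 0.0639) or PSD (-0.61, exact adjusted p = 0.0624). Without the mice that stand apart it passed after PSD, at -0.70 (exact adjusted p = 0.0411). The ratio of Gadd45b to each of the other GADD45 genes thus differed from controls in all 3 treated groups.

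Among the BCL-2 family pairs, Bbc3 to Mcl1 was lower than in controls, by log2 differences of -0.66 after restraint (exact adjusted p = 0.00214) and -0.92 after PSD + restraint (exact adjusted p = 0.00147). After PSD the difference was -0.25 (exact adjusted p = 0.157), with 0.07 in females and -0.57 in males. No restrained mouse, with or without PSD, overlapped the controls of its sex in this ratio, although the highest restrained female, at -3.078, lay just below the lowest control female, at -3.075. Bcl2l11 to Mcl1 did not pass in any comparison, at 0.12, -0.06 and 0.19 (exact adjusted p = 0.192, 0.505 and 0.0943). After PSD + restraint it passed when male PSD + restraint mouse 1 was left out, at 0.22 (exact adjusted p = 0.0394). Pmaip1 to Mcl1 did not pass either, at 0.18, 0.22 and -0.20 (exact adjusted p = 0.546, 0.505 and 0.505).

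**Figure D4:**
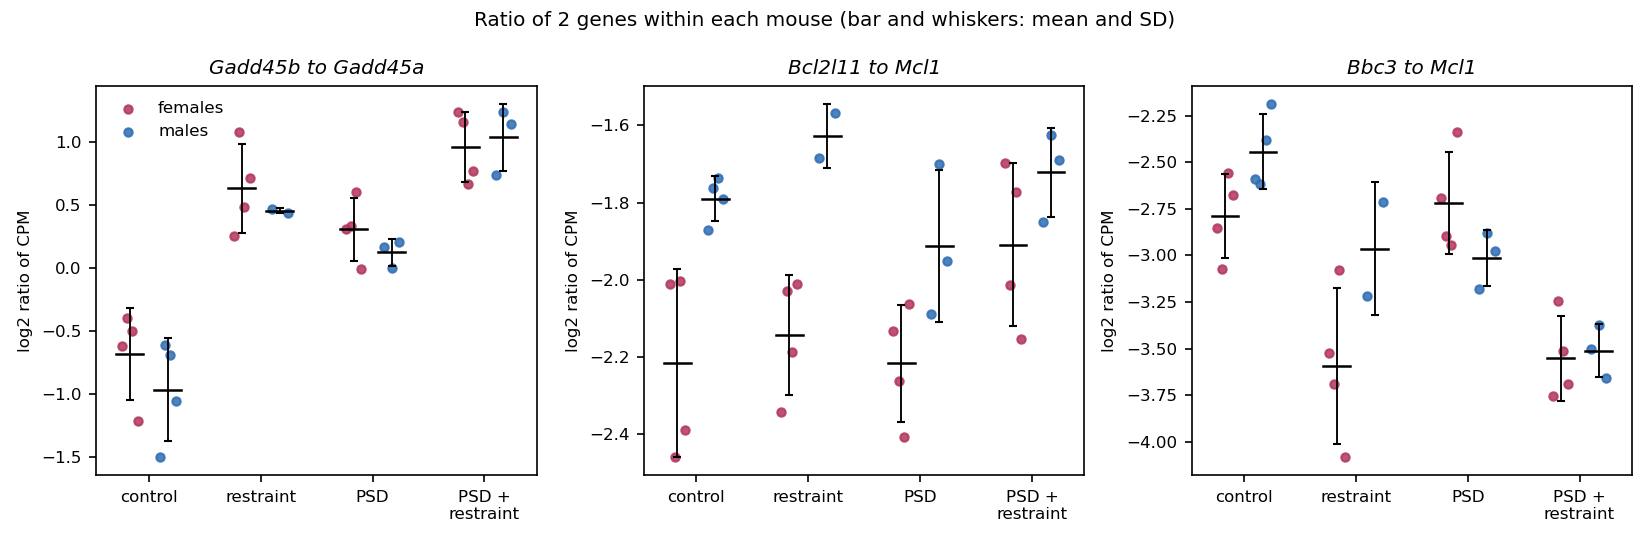
Log2 ratio of CPM of 2 genes within each mouse (vertical axes, log2 units, not starting at 0) for Gadd45b to Gadd45a, Bcl2l11 to Mcl1 and Bbc3 to Mcl1, with females in red, males in blue, and the group mean and SD in black. Every treated mouse lies above every control for Gadd45b to Gadd45a, and the restrained mice lie below the controls of their sex for Bbc3 to Mcl1.

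The members' wider pathways were covered by lists of other genes. In 6 lists of other survival and effector members of the BCL-2 family, BH3-only and related genes, apoptosome genes with caspases and inhibitor of apoptosis proteins, CCR4-NOT subunits and GADD45 binding partners, 49 of 50 genes were tested. Of these, edgeR and DESeq2 called 0 after restraint, PSD and PSD + restraint in all mice, with 5, 10 and 16 at an unadjusted edgeR p under 0.05. Over all 18936 tested genes 1948, 3328 and 4838 reached that unadjusted p, and 216, 127 and 1033 were called. The list medians lay between -0.10 and 0.14 on the log2 scale. In all mice, of 20 other p53 target genes, edgeR called 0 after restraint (1 at an unadjusted p under 0.05, and 1 called by DESeq2, Plk3), 1 after PSD and 3 after PSD + restraint. Sesn2, a stress-induced regulator of TORC1 signalling, rose with PSD by 0.40 (standard error 0.09, edgeR adjusted p = 0.0373). Plk3, a stress-responsive kinase, rose with PSD + restraint by 1.06 (standard error 0.23, edgeR adjusted p = 0.00277); females had 4.26 ± 0.987 CPM as controls (SD, n = 4) and 8.26 ± 0.673 CPM after both treatments (SD, n = 4). Cdkn1a, which encodes the cell cycle inhibitor p21, a GADD45 partner, rose by 0.45 (standard error 0.12, edgeR adjusted p = 0.0162). Perp, which encodes a membrane protein of desmosomes and p53-dependent apoptosis, fell, its log2 fold change being -0.62 (standard error 0.18, edgeR adjusted p = 0.0283). Of 4 tested relatives of Btg2 in the BTG/TOB family, Tob2 was the 1 gene called in all mice. It rose with restraint by 0.45 (standard error 0.08, edgeR adjusted p = 0.00175) and with PSD + restraint by 0.49 (standard error 0.08, edgeR adjusted p = 0.000145). None was called after PSD (0 at an unadjusted edgeR p under 0.05, and 0 by DESeq2). Fitted by sex, restraint called Tob1 and Tob2 in males, both higher, and none of the 4 in females. Tob2 was also called after PSD + restraint in each sex. Of the p53 target genes, Plk3 was called in females after restraint and after PSD + restraint. In males, Perp and Trp53inp1 were called lower after PSD + restraint. In the 6 lists above, only Cnot8 of CCR4-NOT was called, lower in females after PSD + restraint.

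For each of the 5 genes called against controls, the 2 genes whose log2 CPM followed it most closely over the 28 mice were found by the root mean square difference of centred values, a description that all mice share. The treated mice entered this choice. Similar treatment changes in the chosen genes therefore come largely from the choice and are not separate evidence. For Gadd45b these were Fam212b (0.31) and B3galt2 (0.37), against an SD of 0.89 for Gadd45b itself. Fam212b rose with PSD + restraint by 1.67 (standard error 0.11, edgeR adjusted p = 2.51e-10), and B3galt2 by 1.91 (standard error 0.14, edgeR adjusted p = 1.04e-09). For Bcl2l11 they were Usp2 and Gmpr2 (0.15 each, SD of Bcl2l11 0.31), and for Mcl1 Pim2 and Josd1 (0.13 each, SD of Mcl1 0.23). Pim2, which encodes a survival kinase, rose with PSD + restraint by 0.39 (standard error 0.05, edgeR adjusted p = 5.97e-06). For Bbc3 they were Frat1 (0.18) and Zscan2 (0.21, SD of Bbc3 0.34), whose log2 fold changes after both treatments were -0.66 (standard error 0.12, edgeR adjusted p = 0.000743) and -0.35 (standard error 0.09, edgeR adjusted p = 0.0158). For Btg2 they were Tob1, its BTG/TOB relative (0.36), and Gm6225 (0.38), against an SD of 0.51 for Btg2. Tob1 was not called in the model of all mice, with 0.29 after restraint (edgeR adjusted p = 0.391) and 0.19 after PSD + restraint (edgeR adjusted p = 0.354).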

How the data were processed

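Pituitary libraries of 28 mice were made with a stranded mRNA kit and sequenced paired-end. The authors aligned reads with MapSplice to mm10 and counted them per UCSC gene with HTSeq 0.9.1 (mode intersection-nonempty), and the deposited values are raw counts per gene and mouse. A second deposited table, of counts divided by size factors of DESeq2 1.16.1, was not used here. Groups and mouse numbers came from the sample labels. The 8 genes, the gene lists and the tests were chosen with earlier results of these data known.

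Counts were analysed in R 4.3.3 with edgeR 4.0.16 (filterByExpr, TMM scaling, quasi-likelihood test; 18936 genes in the model of all mice with sex, PSD, restraint and their interaction, 18059 in females and 18271 in males). DESeq2 1.42.0 served as an alternative. TMM factors scaled the CPM values, and 2 counts were added before taking log2 CPM. Named beside the 8 genes were up to 3 called genes per list and the 2 genes closest to each called gene. Mice of 1 group are separate animals. Lists of macrophage genes (69.0 to 101 summed CPM over all mice) and red blood cell genes (352 to 2995 CPM) were also checked. In control females the macrophage sum was 69.0 to 73.5 CPM. It lay above these in females after PSD (75.0 to 101 CPM) and PSD + restraint (82.0 to 96.6 CPM). In males these groups overlapped, at 74.5 to 84.1, 75.8 to 76.2 and 77.4 to 82.3 CPM. Of the 6 macrophage genes, edgeR and DESeq2 each called 1 after PSD + restraint in all mice and 0 after PSD. Scripts were tested on simulated data. The alternatives are given in the closing section.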

Additional observations from a re-analysis of the deposited data

Results flagged for a closer look

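Of the 40 combinations of a gene and a group of 4 mice, 4 held a mouse whose distance to the nearest of the other 3 exceeded Dixon's 95% critical value, and chance alone flags about 1 in 20 such groups. Male control mouse 4 was the highest of its group for Gadd45a, at 25.1 CPM against 19.7 to 20.2 CPM in the others. Male control mouse 1 was the lowest for Gadd45b, at 7.09 CPM against 12.0 to 12.9 CPM, and also the lowest for Bcl2l11, at 20.1 CPM against 22.5 to 22.6 CPM. Female PSD mouse 4 was the highest for Bbc3, at 18.4 CPM against 12.7 to 13.4 CPM. Groups of 2 or 3 mice were not examined in this way. Male control mouse 1 is the mouse with the lowest summed neurointermediate lobe level, and its part in the male control values was not tested beyond leaving it out.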

How the results depend on the processing

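The counts of called genes were recomputed with DESeq2, DESeq2's size factors, no filter, at least 10 counts in every mouse, a mean of at least 1 TPM, no fold change threshold, only the groups compared, the mouse number as a block, each mouse left out in turn and, chosen after seeing the data, without the 3 mice that stand apart. No difference that was called under any of these settings changed direction. Of values never called, Gadd45g in restrained males had -0.02 and, with the block, 0.02. In the model of all mice, the counts for the 3 treatments against control stayed at 3 to 5, 1, and 5 to 6 of the 8 genes, and without the fold threshold 3 genes instead of 1 differed between the sexes (Gadd45g, Mcl1 and Gadd45a). In single sexes the counts moved more. After PSD, 1 gene (Gadd45b) was called in place of 0 by DESeq2 in females and in males, and in males also without a filter and without the mice that stand apart. Leaving out 1 mouse gave 0 to 1 after PSD in females (1 without female PSD 4) and 0 to 1 in males (1 without male control 1). After restraint in males, DESeq2 called 4 in place of 2, and leaving out 1 mouse gave 1 to 4, with 1 without male control 2, 3 or 4 or either restrained male and 4 without male PSD + restraint 3. Where a restrained male was left out, the remaining one was assumed to vary like the other groups. After PSD + restraint in males, leaving out 1 mouse gave 1 to 5 in place of 5, with 3 without male control 2 or 3, 2 without male PSD + restraint 1 and 1 without male PSD + restraint 2. The cause of these shifts was not tested.

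The same mouse number in different groups did not pair the mice: deviations from group means correlated by a median of -0.02 in females (-0.35 to 0.33 over 24 pairs) and -0.07 in males (-0.22 to 0.12 over 15 pairs). With the number as a replicate block, counts became 1 after restraint and 2 after PSD + restraint in males, in place of 2 and 5, and the other counts of called genes stayed within 1.5 times. The blocked test of the pair ratios after restraint, on 6 pairs of mice, passed 0 in place of 3. Those 3 ratios each had an exact adjusted p of 0.0563. After PSD + restraint the blocked test also passed Bcl2l11 to Mcl1, at 0.19 (exact adjusted p = 0.0402). With so few pairs the exact p cannot become very small, which limits this test. Of all tested genes, 127 were called after PSD in the model of all mice, against 237 with DESeq2, 48 with only the groups compared, 40 with the block and 48 without the mice that stand apart. The TPM filter called 1832 of all genes between the sexes in place of 2822. PSD + restraint against restraint called 18, but 54 with DESeq2 and 6 with only the groups compared. After restraint, females had 98 (190 with DESeq2, 54 with only the groups compared) and males 54 (99 with DESeq2, 4 with the block). After PSD, females had 5 (0 to 394 over the alternatives) and males 1 (0 to 72), in each sex most with DESeq2. After PSD + restraint, females had 398 (627 with DESeq2) and males 467 (147 with the block). Without the fold threshold, PSD + restraint called 2064 in place of 1033 against control and 586 in place of 381 against PSD, and 6510 genes differed between the sexes. Depth limits Pmaip1 most, whose 4 to 42 counts left wide intervals.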

Other observations

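The spread of Gadd45g among females was shared by other genes. Of 15448 genes at a mean of at least 1 CPM in the 16 females, the 2 closest to Gadd45g by the root mean square difference of centred log2 CPM were Plxna4 (0.25), a semaphorin receptor, and Mesdc1 (0.26), against an SD of 0.74 for Gadd45g. This comparison, and the genes in this paragraph, were chosen after their values were seen. Control females 1 to 4 had 33.4, 101.1, 32.2 and 90.9 CPM of Gadd45g, 12.2, 28.5, 11.3 and 29.7 CPM of Plxna4 and 20.3, 54.7, 19.3 and 82.2 CPM of Mesdc1. Restrained females 1 to 4 had 55.4, 23.5, 19.6 and 64.1 CPM of Gadd45g, 23.9, 9.25, 9.51 and 35.3 CPM of Plxna4 and 54.5, 19.6, 15.4 and 62.0 CPM of Mesdc1. The same mice were high for all 3 genes, control 2 and 4 and restrained 1 and 4. For Plxna4 and Mesdc1 this follows largely from their choice as the closest genes in these females, and it is not separate evidence. Perp was the p53 target gene called lower after PSD + restraint in the model of all mice. It had 39.8, 84.6, 47.7 and 104.5 CPM in control females and 67.6, 32.4, 41.9 and 82.4 CPM in restrained females. The same 4 mice were high for Perp as well. After PSD, mouse 1 had the highest Gadd45g of its group (40.7 CPM) and the highest Plxna4 (18.6 CPM) and Mesdc1 (27.0 CPM), whereas its Perp, at 39.5 CPM, lay within the group's range of 27.8 to 42.3 CPM. Males had 8.02 to 12.7 CPM of Plxna4 and 9.21 to 15.2 CPM of Mesdc1. The labels give no feature that separates these 4 females from the other mice of their groups, and the source of the pattern was not tested.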
